A study of Mus musculus with 4 samples.

Results

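The 10 genes described here encode enzymes that lengthen and desaturate fatty acids in the endoplasmic reticulum: the elongases Elovl1, Elovl2, Elovl3, Elovl5, Elovl6 and Elovl7, the stearoyl-CoA desaturases Scd1 and Scd2, and the front-end desaturases Fads1 and Fads2. They were chosen by name, with earlier results of these data known, and all 10 were among the 18040 genes that could be tested in liver RNA. The livers came from male C57BL/6 mice kept on a high-fat diet, the diet being shared by both groups. Each mouse was injected intraperitoneally with an antisense oligonucleotide (ASO), a short synthetic nucleic acid made to lower a chosen transcript, at 25 mg/kg, with 2 injections a week for 4 weeks. In 4 mice the oligonucleotide was the scrambled control, and in the other 4 it was directed against Plin2, the transcript of perilipin-2, a coat protein of lipid droplets. Ages were not used here.

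Each of 4 Agilent arrays of 2 colours carried the RNA of a control liver, in red (Cy5), beside that of a Plin2-ASO liver, in green (Cy3). Dyes were not exchanged on any array, so dye and group cannot be told apart, and a value above 0 means higher in the livers labelled Plin2-ASO as far as the dye labels are right. Plin2 itself was not lower in those livers: its log2 ratios were 0.24, 0.15, 0.83 and 0.36 (mean 0.40 ± 0.15 SE, limma adjusted p = 0.156). Between 59.8% and 70.1% of probes were well above background in a channel. Array 3 stood apart, with a mean correlation of 0.33 with the other arrays over all genes, against 0.51 to 0.65 for the others. It also had the most outlier spots, 7.61% against 1.5% to 3.83%. The members' results are also given without it where they change.

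Elongases join malonyl-CoA to a fatty acyl-CoA as the opening, rate-setting step of a cycle that adds a pair of carbons, and each member prefers chains of certain length and saturation. Stearoyl-CoA desaturases place the first double bond into saturated chains, while the front-end desaturases add further double bonds to dietary polyunsaturated chains and alternate with Elovl5 and Elovl2 on the route to arachidonate and docosahexaenoate. In liver many of these genes are known targets of the sterol and carbohydrate response factors SREBP and ChREBP and of the liver X receptors.

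The members were read by 12 probes of 60 bases, a single probe for each gene except Elovl5 and Elovl7, which had a pair each. The stretches below are the first 30 bases of the probes on which the results turn, written 5′ to 3′ as deposited. The capitals in Elovl3 mark AATAAA, the usual polyadenylation signal.
Elovl3: ggcctggtaggcgcttAATAAAtgtctttt
Scd2: acatttggggatcctctgcagaggagtatt
Scd1: actcctgggctaagtatctgacagtctcac
Elovl7, brighter probe: tcctgatccattactctgtctccacattca
Elovl7, other probe: atgatttgtctcaacggttaatgaacgctt
Elovl5, brighter probe: ctcaatacaaaaattataacatttgatagt
Elovl5, other probe: ctgtagtgctactttgacatacacttcctt
In the build the files use, mm7, the Elovl3 probe lies at chr19:46031906-46031965, the Scd2 probe at chr19:44200407-44200466 and the Scd1 probe at chr19:44288770-44288829. The brighter Elovl7 probe lies at chr13:105413408-105413467 and the other at chr13:105412670-105412729. The brighter Elovl5 probe lies at chr9:78025742-78025801 and the other at chr9:78025137-78025196. Positions within exons were not analysed here. No run longer than 9 bases was shared by any 2 of the members' probes. Probes were compared only with each other, not with the transcripts of other members. Whether the probe of Scd1 or Scd2 also reads the other, a close homologue, was therefore not tested.

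Promoter sequence from RefSeq (build GRCm38.p6) was matched for 6 of the 10 members. The 250 bases before the start site are shown for Elovl5 (by its brighter probe) and Elovl6, whose log2 ratios were highest on array 3, and for Fads2, which was lowest there. Elovl2 was also lowest on array 3, and its windows are not shown.
Elovl5, chr9:77917115-77917364, plus strand: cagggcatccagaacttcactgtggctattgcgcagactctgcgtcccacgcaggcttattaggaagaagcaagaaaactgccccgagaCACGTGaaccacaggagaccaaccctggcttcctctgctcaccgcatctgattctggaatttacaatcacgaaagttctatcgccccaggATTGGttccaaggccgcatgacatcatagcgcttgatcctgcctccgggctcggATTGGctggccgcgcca
Elovl6, chr3:129532136-129532385, plus strand: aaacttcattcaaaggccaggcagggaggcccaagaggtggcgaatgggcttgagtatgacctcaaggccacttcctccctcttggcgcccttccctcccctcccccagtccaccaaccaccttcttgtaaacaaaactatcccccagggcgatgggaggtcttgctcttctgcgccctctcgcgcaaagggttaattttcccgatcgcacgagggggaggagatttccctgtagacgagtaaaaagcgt
Fads2, chr19:10101504-10101753, minus strand: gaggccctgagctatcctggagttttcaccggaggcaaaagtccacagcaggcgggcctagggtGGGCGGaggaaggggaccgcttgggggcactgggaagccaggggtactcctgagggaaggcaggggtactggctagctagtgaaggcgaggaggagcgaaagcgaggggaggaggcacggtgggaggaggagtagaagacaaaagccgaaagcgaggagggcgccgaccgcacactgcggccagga
Capitals mark exact matches, on either strand, to the CCAAT box, the GC box GGGCGG, the E-box CACGTG, the TATA box TATAAA and the sterol regulatory element TCACNCCAC. The Elovl5 window held 2 CCAAT boxes, both on the opposite strand, and 1 CACGTG. The Fads2 window held 1 GGGCGG, and the Elovl6 window held none of these letters. Of 32851 promoter windows of this length, 33.8% held CCAAT, 32.7% GGGCGG, 6.02% CACGTG, 12.4% TATAAA and 1.05% TCACNCCAC, and no match bears on whether a factor binds.

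Of the 10 members, Elovl3 rose and Scd2 fell, and the other 8 did not pass the test (limma on log2 ratios over 4 arrays, Benjamini-Hochberg adjusted over all genes, threshold 0.05). Among all 18040 genes 3.69% were called higher and 6.08% lower, 9.76% in either direction. With only 10 members, a single call in each direction is no result about the members as a group. The median log2 ratio of the 10 members was 0.36, against -0.03 for all genes, with 7 members above 0 and 3 below. Elovl1, Elovl3 and Scd2 had the same sign on all 4 arrays, as did 34.3% of the 16128 genes measured on all arrays. The same 3 members had levels that did not overlap between the groups, against 16.6% of those genes.

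**Figure D1:**
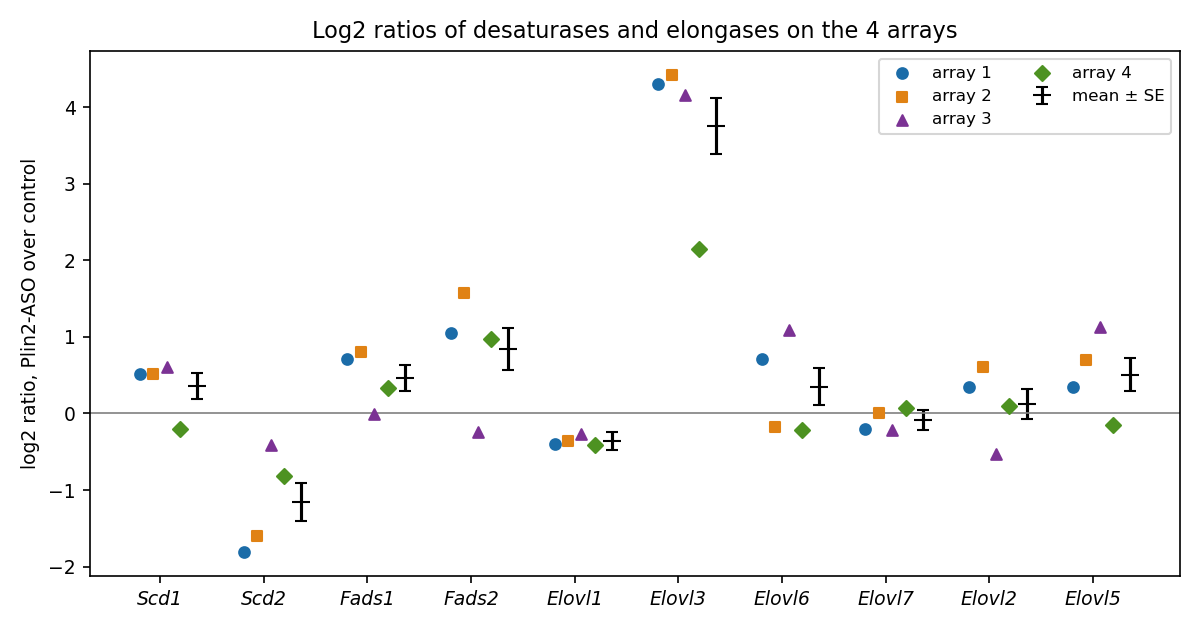
Log2 ratio (Plin2-ASO over control) of each member on arrays 1 to 4, with the mean and its standard error from limma in black; the horizontal line marks 0. Elovl3 lies between 2.14 and 4.43, Scd2 lies between -1.81 and -0.41, and most other members straddle 0.

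Elovl3, which lengthens saturated and monounsaturated chains and is best known from brown fat, skin and the liver of male mice, was the member that differed most. Its levels, as log2 normalized signal, were 12.00, 12.84, 12.66 and 12.61 in the livers labelled Plin2-ASO on arrays 1 to 4, and 7.70, 8.42, 8.50 and 10.47 in the control livers. Every Plin2-ASO liver lay above every control liver. The control liver on array 4 was well above the other control livers, while the Plin2-ASO liver on that array lay among the others of its group. The log2 ratios were 4.30, 4.43, 4.15 and 2.14, a mean of 3.76 ± 0.37 (SE, 95% interval 2.89 to 4.62), or 13.5-fold (limma adjusted p = 0.00279). Leaving out each array in turn gave 3.53 to 4.29, with adjusted p from 0.000358 to 0.0197.

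Scd2, the stearoyl-CoA desaturase best known from brain and from the liver of newborn mice, fell. Its levels were 9.44, 9.83, 9.94 and 9.87 in the livers labelled Plin2-ASO and 11.24, 11.43, 10.35 and 10.69 in the control livers. The groups did not overlap, and the control livers on arrays 1 and 2 were the highest. Log2 ratios were -1.81, -1.59, -0.41 and -0.82, a mean of -1.16 ± 0.24 (SE, 95% interval -1.73 to -0.59), which is 2.23-fold lower (limma adjusted p = 0.0295). The call depended on single arrays. Without array 1, 2 or 4 the mean was -0.94, -1.01 or -1.27, with limma adjusted p of 0.154, 0.150 and 0.0561. Without array 3 the mean was -1.41 (limma adjusted p = 0.00142). The share of all genes called lower also changed, from 6.08% to 1.15%, 1.24%, 20.3% and 3.42% without arrays 1 to 4 in turn.

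Scd1, the main stearoyl-CoA desaturase of adult liver, which makes oleate and palmitoleate, did not follow Scd2. Its log2 ratios were 0.52, 0.51, 0.61 and -0.20, with a mean of 0.36 ± 0.17 (SE, 95% interval -0.04 to 0.76, limma adjusted p = 0.228). Scd1 was higher in the Plin2-ASO liver on 3 arrays and lower on array 4, and its levels overlapped between the groups. The difference between the log2 ratios of Scd1 and Scd2 was 2.32, 2.11, 1.02 and 0.62 on the 4 arrays, a mean of 1.52 ± 0.41 (SE). It had the same sign on every array, and the exact two-sided sign-flip permutation test gave p = 0.13, the smallest that 4 arrays allow. In all, 4 pairs of related members were compared in this way, and with 4 arrays no pair could pass 0.05 in this test.

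Fads2, which carries out the entry step from dietary linoleate and linolenate, and Fads1, which makes arachidonate and eicosapentaenoate from their direct precursors, had a shared pattern over the arrays. Fads2 levels were 15.63, 15.60, 14.45 and 14.98 in the livers labelled Plin2-ASO and 14.57, 14.02, 14.69 and 14.00 in the control livers. On array 3 the order of the 2 livers was turned: the log2 ratios were 1.05, 1.58, -0.25 and 0.98. Their mean was 0.84 ± 0.28 (SE, 95% interval 0.19 to 1.49), which did not pass (limma adjusted p = 0.105). Fads1 read 0.71, 0.80, -0.01 and 0.33, with a mean of 0.46 ± 0.17 (SE, 95% interval 0.06 to 0.86, limma adjusted p = 0.140). Without array 3, left out after the data were seen, both passed: the mean of Fads2 was 1.20 (limma adjusted p = 0.000977) and that of Fads1 was 0.61 (0.0111). In that fit 12.4% of all genes were called higher, against 3.69% with all arrays. The difference of Fads1 minus Fads2 was -0.38 ± 0.23 (SE, exact sign-flip permutation p = 0.25).

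**Figure D2:**
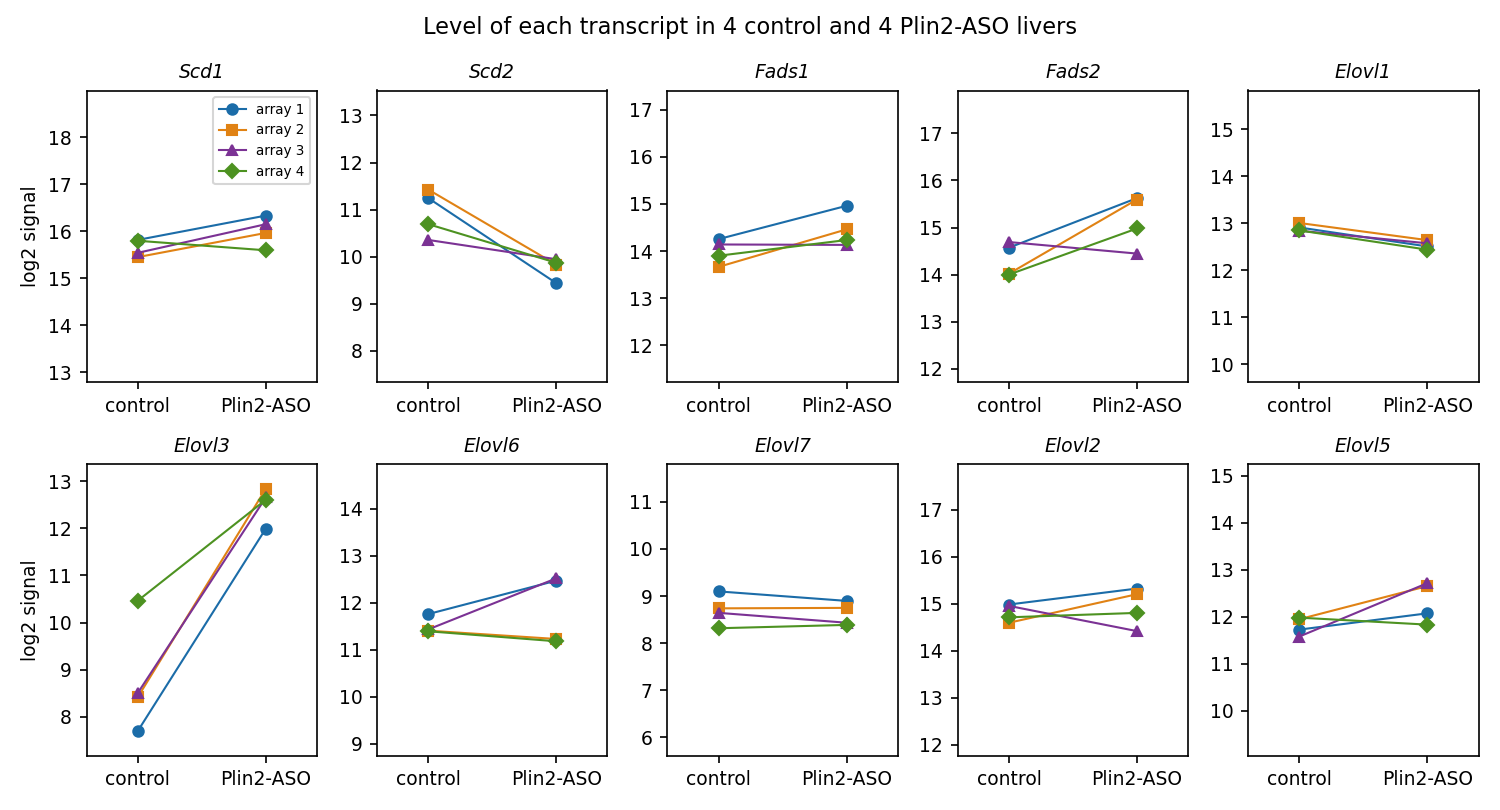
Level (log2 normalized signal) of each member in the control and the Plin2-ASO liver of every array, a line joining the 2 livers of an array; every panel spans the same number of log2 units. Lines for Elovl3 all rise and those for Scd2 all fall, while Fads2 falls on array 3, from 14.69 to 14.45, and rises on the others.

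Among the other elongases of saturated and monounsaturated chains, Elovl1, which makes very long chains used in sphingolipids, showed a small difference with little spread. Its levels were 12.51, 12.64, 12.57 and 12.44 in the livers labelled Plin2-ASO and 12.91, 13.00, 12.84 and 12.85 in the control livers. All 4 Plin2-ASO livers lay below all 4 control livers. The log2 ratios were -0.40, -0.36, -0.27 and -0.41, with a mean of -0.36 ± 0.12 (SE, 95% interval -0.65 to -0.07), which did not pass (limma adjusted p = 0.112). Without array 3 the mean was -0.39 and passed (limma adjusted p = 0.0314), in a fit that called 20.3% of all genes lower, against 6.08% with all arrays.

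Elovl6, which lengthens palmitate to stearate and so supplies the substrate of Scd1, read 0.71, -0.18, 1.09 and -0.21. Its Plin2-ASO livers were unlike each other, with levels of 12.47, 11.23, 12.52 and 11.18, while the control livers read 11.76, 11.41, 11.43 and 11.40. The mean log2 ratio was 0.35 ± 0.24 (SE, 95% interval -0.22 to 0.92, limma adjusted p = 0.394). Elovl3 minus Elovl6, a comparison of 2 elongases of saturated chains, was 3.59, 4.60, 3.07 and 2.36, a mean of 3.41 ± 0.47 (SE, exact sign-flip permutation p = 0.13, the smallest possible).

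Elovl7, a further elongase of saturated chains, gave unlike values with its pair of probes. The brighter probe, which was well above background in all 8 livers, read -0.20, 0.01, -0.21 and 0.07, a mean of -0.08 ± 0.13 (SE, 95% interval -0.39 to 0.22, limma adjusted p = 0.728). The other probe read -1.35, -2.0, -1.28 and -0.98, and was well above background in all 4 control livers and in 0 of 4 livers labelled Plin2-ASO. For that probe only a bound holds, at least 2.35-fold lower (limma adjusted p = 0.00529 over 25841 probes, of which 4.35% were called higher and 5.64% lower). It entered that fit only through the control livers, so the p supports nothing by itself. Which probe reads the transcript of this gene was not tested.

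Elovl5, which lengthens polyunsaturated chains early in their route, was read by a pair of probes that ran in the same direction. Its brighter probe gave 0.35, 0.70, 1.13 and -0.15, a mean of 0.51 ± 0.21 (SE, 95% interval 0.01 to 1.01), which did not pass (limma adjusted p = 0.180). The other probe gave 0.52, 1.05, 0.79 and 0.37, a mean of 0.68 ± 0.15 (SE), and passed in the fit over all probes (limma adjusted p = 0.0342, against 0.170 for the brighter probe in that fit). Array 4 separated the probes most, being below 0 for one and above for the other. Elovl2, which acts later in the route to docosahexaenoate, read 0.34, 0.61, -0.54 and 0.09, a mean of 0.13 ± 0.20 (SE, 95% interval -0.34 to 0.59, limma adjusted p = 0.730). Elovl2 minus Elovl5 was -0.38 ± 0.44 (SE, exact sign-flip permutation p = 0.625), with opposite signs among the arrays.

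**Figure D3:**
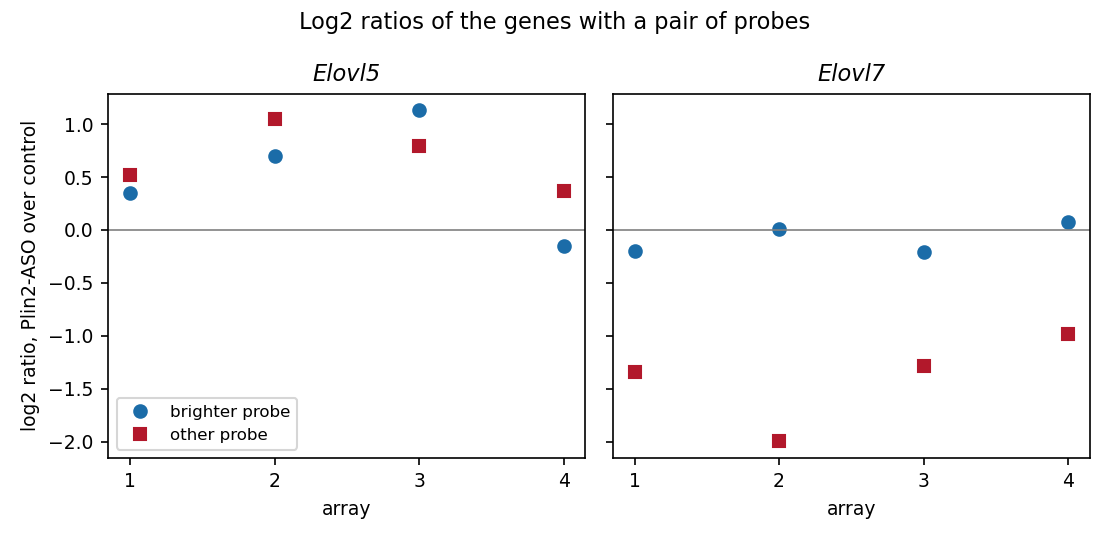
Log2 ratio (Plin2-ASO over control) of each probe of Elovl5 and Elovl7 on the 4 arrays, circles for the brighter probe and squares for the other. The Elovl5 probes lie farthest apart on array 4, and the other Elovl7 probe lies from -2.0 to -0.98, below the brighter one on every array.

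Array by array the members did not move as a block. The median log2 ratio of the 10 members was 0.43 and 0.56 on arrays 1 and 2, and below 0 on array 3 (-0.11) and array 4 (-0.04). Fads1, Fads2 and Elovl2 were each lowest on array 3, where Elovl6, Scd1 and the brighter probe of Elovl5 were each highest, the other Elovl5 probe being highest on array 2. On array 4 Elovl6, Scd1 and the brighter probe of Elovl5 were below 0, at -0.21, -0.20 and -0.15, while the other Elovl5 probe read 0.37. Adipocyte markers, from a list of 10 genes of which 8 were tested, differed on array 3 as well. Their median log2 ratio was 1.96 there, against -0.09 to 0.13 on the other arrays. The summed signal of the 7 adipocyte markers measured on all arrays was 16.30 (log2) in the Plin2-ASO liver of array 3, against 14.16 to 14.59 in the other Plin2-ASO livers and 14.48 to 15.26 in the control livers. Of the 8 markers tested 2 rose (Cfd and Lipe, named after their values were seen) and none fell. Lipe had no value on array 3 and is not in the sum. Without array 3 the median of the adipocyte markers was 0.00, with 2 higher and 2 lower. The part of adipocyte RNA in the members' values on array 3 was not tested. On arrays 3 and 4 the log2 ratio also ran with the GC content of the probes, in opposite directions. The correlations over probes were 0.06, 0.08, -0.28 and 0.26 on arrays 1 to 4. With a correction for probe GC 1 member was higher and 1 lower, as without it, beside 4.93% and 7.41% of all genes.

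Without array 3, chosen for omission after the data were seen, 3 members were higher (Elovl3, Fads1 and Fads2) and 2 lower (Elovl1 and Scd2). Over all genes 12.4% were then called higher and 20.3% lower, so calls grew among all genes as well as among the members. Among the members that did not pass without it either, the mean of Elovl6 went from 0.35 to 0.11 (limma adjusted p = 0.688), that of Elovl2 from 0.13 to 0.35 (0.0810) and that of Elovl5 from 0.51 to 0.30 (0.196).

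Markers of other liver cells moved too. Of 11 macrophage markers 7 fell and 3 rose (Clec4f, Vsig4 and Marco, named after their values were seen). Summed over the 9 macrophage markers measured on all arrays, which leaves out Clec4f and Marco, the signal was 15.44 to 16.15 (log2) in the livers labelled Plin2-ASO and 16.91 to 17.79 in the control livers. Among 10 stellate cell markers 5 fell, and the 8 measured on all arrays summed to 15.42 to 15.87 against 16.65 to 17.35. Of 8 endothelial markers, all in the sum, 4 fell, with 13.10 to 13.59 against 13.83 to 14.22. Of 4 cholangiocyte markers 2 fell, and the sum of 3 of them, 12.57 to 13.37 against 14.41 to 15.36, was mostly Spp1, whose mean level was 12.45 against 14.68. Of 6 hepatocyte markers tested 1 fell (albumin) and 0 rose, and 5 of them summed to 18.26 to 18.56 against 18.99 to 19.25. Albumin is in that sum, with a mean level of 15.82 against 17.52. By mean log2 ratio 1 of the 6 hepatocyte markers was above 0 and 5 were below. None of 5 blood cell markers passed in limma, and 2 had an unadjusted p under 0.05, a value for which the share of all genes was not counted. The counts that fell changed with single arrays, as the calls over all genes did. Without array 1 or 2 they were 3 and 4 for macrophages, 2 and 2 for stellate cells and 0 and 0 for endothelial cells. Over all genes 1.15% and 1.24% were then called lower, against 6.08% with all arrays. Without array 3 the marker counts were 8, 7 and 7, beside 20.3% of all genes called lower. Fewer cells of a type and less RNA per cell cannot be told apart in whole liver, and the part of these cells in the fall of Scd2 was not tested.

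The genes whose 4 log2 ratios lay nearest to those of the called members were sought among 12647 named genes measured on all arrays, by Euclidean distance. For Elovl3 they were Sult2a8, a sulfotransferase, at a distance of 0.74 (4.02, 3.90, 4.59 and 2.15), and Cyp2f2, a cytochrome P450, at 1.13 (3.93, 3.45, 4.11 and 1.72). Both shared the lower value on array 4. For Scd2 they were Gngt2, a G protein gamma subunit, at 0.20 (-1.71, -1.77, -0.40 and -0.79), and Tmem88, a membrane protein, at 0.23 (-1.84, -1.56, -0.52 and -1.02). Both were strongest on arrays 1 and 2 and weakest on array 3. The neighbours of Elovl3 and Scd2 were chosen by these same log2 ratios. A shared pattern over the arrays therefore follows from the choice and is no evidence of a link.

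The genes around the members in the pathway were taken from lists. A list around malonyl-CoA and palmitate had 9 genes tested, of which 2 rose and none fell. Not all of these genes make substrates of the members, so the count and the median are of a mixed list. Acacb, the acetyl-CoA carboxylase of the mitochondrial surface, read 2.18, 1.98, 2.48 and 1.78, or 4.31-fold (limma adjusted p = 0.00146), and passed without any single array. Acss2, which makes acetyl-CoA from acetate, read 1.81, 1.47, 2.43 and 0.75, or 3.06-fold (limma adjusted p = 0.0121), and did not pass without array 1 (0.0761) or array 2 (0.0565). The share of all genes called higher was then 0.804% and 0.909%, against 3.69% with all arrays. The median of the list was 0.34. Fasn, fatty acid synthase, singled out after its values were seen, read 0.95, 0.20, 2.33 and -0.75 (limma adjusted p = 0.36). It was highest on array 3 and lowest on array 4, as were Elovl6, Scd1 and the brighter probe of Elovl5. The other Elovl5 probe was highest on array 2.

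Of 19 regulators tested 3 rose and none fell, with a median of 0.06. Thrsp, a lipogenic protein of liver and fat, read 3.06, 3.07, 2.93 and 2.04, or 6.84-fold (limma adjusted p = 0.00143), and passed without any single array. Insig1, which holds SREBP in the endoplasmic reticulum and is itself its target, read 1.55, 1.72, 1.93 and 0.43 (limma adjusted p = 0.0164). Ghr, the growth hormone receptor, read 1.48, 0.99, 1.24 and 0.54 (limma adjusted p = 0.0140). Neither passed without array 1 or without array 2, where limma adjusted p was 0.0980 and 0.0896 for Insig1 and 0.0974 and 0.0738 for Ghr. Calls fell over all genes too, with 0.804% and 0.909% called higher, against 3.69% with all arrays. Thrsp, Insig1 and Ghr were lowest on array 4, as Elovl3 was. Of the other pathway genes called higher, Acacb, Acss2 and Acsl1 were lowest there too, and Lpgat1 was highest there. Srebf1, the SREBP gene most tied to fatty acid synthesis, was singled out after its values were seen and read 0.09, -0.23, 0.00 and -0.78 (limma adjusted p = 0.445).

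The other steps of the elongation cycle (5 genes) and the electron supply of the desaturases (5 genes) had no gene past limma's threshold. Their medians were -0.26 and 0.28, and 2 and 3 genes had an unadjusted p under 0.05. These counts were not set beside the share of all genes under that value and are no result about the lists. Among relatives of the members, Fads3, a desaturase-like gene of the Fads cluster, fell: it read -1.03, -0.96, -0.34 and -0.71 (mean -0.76, limma adjusted p = 0.0282). It did not pass without array 1 (0.185), array 2 (0.170) or array 4 (0.0761). Scd2 also lost its call without each of these. Over all genes 1.15%, 1.24% and 3.42% were then called lower, against 6.08% with all arrays. The other 4 relatives tested did not pass.

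Genes that use the products included 4 ceramide synthases, of which Cers6, which attaches palmitate, fell by 0.93 on the log2 scale (limma adjusted p = 0.00972, and 0.0878 or 0.0565 without array 1 or 2). Of 11 genes that activate acyl chains or place them in phospholipids, 2 rose and 1 fell. Lpgat1, an acyltransferase of lysophospholipids, read 0.85, 0.72, 0.69 and 0.87 (limma adjusted p = 0.0121), with little spread, and did not pass without array 1 (0.109) or array 2 (0.0829). Acsl1, the main long-chain acyl-CoA synthetase of liver, rose by 0.83 (0.0498), and lost its call without array 1 (0.229) or array 2 (0.181). Acsl4, which prefers arachidonate, fell by 1.13 on the log2 scale (0.0437), and did not pass without array 1 (0.173), array 2 (0.196) or array 4 (0.132). Calls fell over all genes as well. Without arrays 1, 2 and 4 in turn, 0.804%, 0.909% and 2.11% were called higher, against 3.69% with all arrays. The shares called lower were 1.15%, 1.24% and 3.42%, against 6.08%. No gene among 10 of the peroxisomal steps to docosahexaenoate passed in limma, and 3 had an unadjusted p under 0.05. The share of all genes under that value was not counted, so these 3 are no result about the list.

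**Figure D4:**
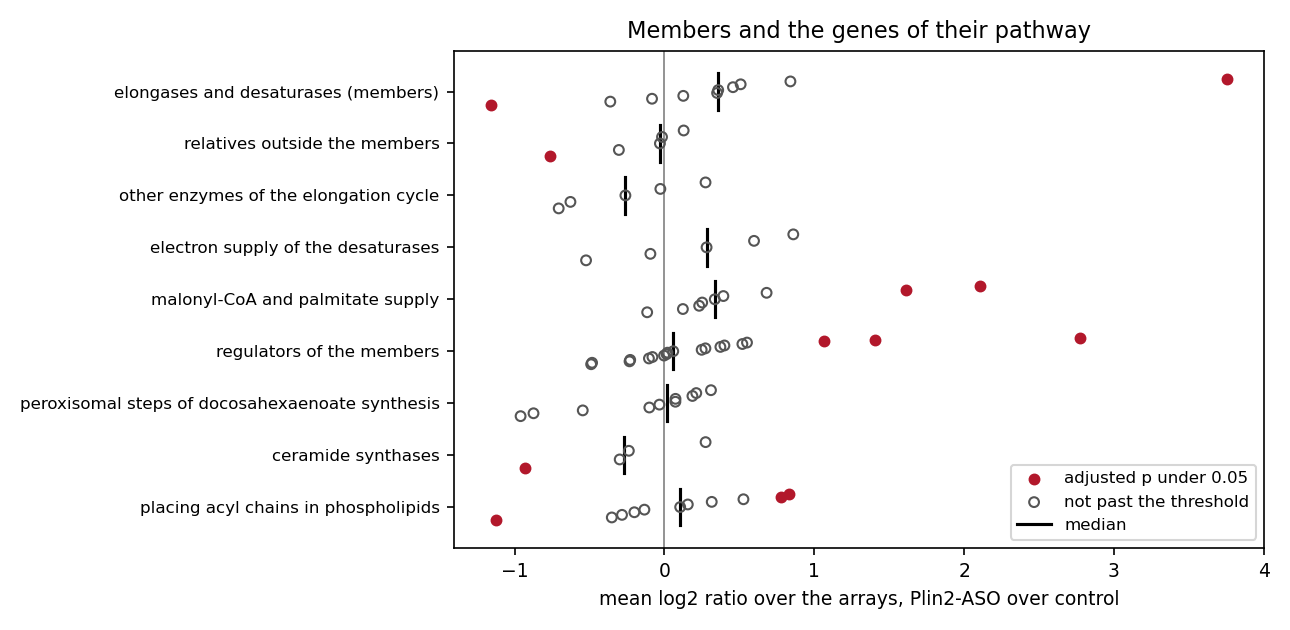
Mean log2 ratio (Plin2-ASO over control) of the members and of each pathway list; filled points passed limma's adjusted p under 0.05, open points did not, and the vertical bars are medians. The members lie at both ends, with Elovl3 at 3.76 and Scd2 at -1.16, and their median is 0.36.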

How the data were processed

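Liver RNA was measured on 4 arrays of 2 colours, 4 mice a group, 1 mouse of each group an array. Per the labels, total RNA was amplified with the Ovation aminoallyl system and coupled to Cy3 or Cy5. The intensity values that the authors deposited are Feature Extraction's mean signal and median background per spot, before correction. The log10 ratios in the same files, per the file headers, and the log2 ratios in the deposited series table were alternatives only. That table equals the log10 ratios converted to log2, red over green, with a median of 0 on each array.

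Spots were corrected by normexp with an offset of 50 and normalized by loess within each array in limma 3.58.1 (R 4.3.3), with 1639 control spots at weight 0 and the sign turned. Outlier spots were missing values, and no spot used was saturated. Probes well above background on at least 3 arrays in 1 channel were kept (27158 of 41174). A gene was its brightest kept probe among those measured on at least 3 arrays. Levels are each channel's log2 signal after Aquantile scaling. Names came from the probe's own accession for 22951 of 41174 probes, from another accession for 131, from a current symbol for 6582 and from an outdated one for 3073, with the deposited name left for 8437. Ratios were fitted with lmFit and eBayes, with Benjamini-Hochberg adjustment. On simulated data the fit recovered 89% of genes changed by 1 and 100% of those changed by 2 on the log2 scale. The simulated noise was independent between genes and had the same spread on every array. Differences between the real arrays, such as those of array 3, are therefore not in these shares. The number of arrays limits the precision.

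The members and lists were chosen with earlier results of these data known, so a list's count is not independent evidence. Named genes are the 10 members, up to 4 called genes of each pathway list and the 2 nearest genes of each called member; markers are given as counts. Fasn, Srebf1, Spp1 and the markers named as rising or falling lie outside this rule and were chosen after their values were seen. The 2 livers of an array share hybridization only, and the array is the pairing in the ratio.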

Additional observations from a re-analysis of the deposited data

Results flagged for a closer look

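In 34 sets of 4 values (each member's log2 ratios, levels in the livers labelled Plin2-ASO and levels in the control livers, and the 4 pair differences), 1 sample lay far from the other 3 in 3 cases by Dixon's criterion, which marks about 1 in 20 such sets by chance. The log2 ratio of Elovl3 was 2.14 on array 4, where the rest read 4.15 to 4.43, and the control liver on that array had the highest Elovl3 level of its group, 10.47. The log2 ratio of Scd1 was -0.20 on array 4, against 0.51 to 0.61 elsewhere. The level of Elovl6 in the control liver on array 1 was 11.76, against 11.40 to 11.43 in the other control livers.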

How the results depend on the processing

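Elovl3 passed under all 21 alternatives, with means from 3.53 to 4.29, and Scd2 passed under 18 of 21. The count of genes past the threshold, 1761, became 3012 at an adjusted p under 0.1 and 7051 with array quality weights, and ranged from 352 to 5910 when each array was left out. With array weights, which gave array 3 a weight of 0.22, 6 members were higher and 2 lower, beside 15.6% and 23.5% of all genes. Leaving out each array gave 1 to 3 members higher and 0 to 2 lower. With the mean of all kept probes of a gene 2 members counted as lower, but the second, Elovl7, did so only through its dimmer probe, for which no more than a bound holds. Elovl7 turned to 0.0196 with the software's ratios and with the series table, and Elovl2 to -0.0342 without array 2, its range over the arrays left out being -0.0342 to 0.3467. Elovl2 minus Elovl5 ranged from -0.5911 to 0.0463 over the arrays left out, changing sign without array 3. The causes were not tested. All fits on ratios pair the livers of an array; without that replicate block 1823 genes passed, with 1 member higher and 1 lower as before. With a probe's level near background, as for the dimmer Elovl7 probe, only a bound could be given.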

Other observations

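With array 3 left out, the lists around the members gained calls as all genes did. The regulators then had 7 of 19 higher and 1 lower, against 3 and 0 with all arrays. The electron supply of the desaturases had 2 of 5 higher and 1 lower, where none passed with all arrays. The 9 genes of the list around malonyl-CoA and palmitate kept a count of 2 higher and 0 lower. Genes that activate or place acyl chains had 3 of 11 higher and 2 lower. The elongation cycle had 1 of 5 higher and 2 lower, relatives of the members 1 of 5 higher and 2 lower, and the peroxisomal steps 0 of 10 higher and 2 lower, while the ceramide synthases stayed at 1 of 4 lower. Among markers, 1 hepatocyte gene was higher and 2 lower of 6, and 2 of 5 blood cell genes were lower. Over all genes 12.4% were then higher and 20.3% lower.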
